A study of Mus musculus with 11 samples.

Results

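T cells that lack cereblon were followed from the naive state into activation through the antigen receptor. The comparison set the 3 arrays of activated crbn-/- cells against the 3 arrays of naive crbn-/- cells, 6 of the 11 arrays in the series. The arrays were chosen by their labels, genotype first and activation state after it. All cells were T cells purified from mouse spleen by negative magnetic selection, from female C57BL6 animals 3 to 4 months old. The knockout naive group was collected without stimulation. The knockout activated group received plate-bound anti-CD3 at 5 µg/ml and soluble anti-CD28 at 1 µg/ml for 12 hours. Wild-type C57BL6 cells of the same sex, age and tissue, 3 naive and 2 activated arrays, served as the comparison genotype. Every animal of the knockout groups carried crbn-/-, with no restriction to a cell type in the labels, and the sources used here do not say which exons the deletion takes. The labels list no group cultured for the same time without antibodies, so effects of culture and of stimulation cannot be told apart. Antibodies against CD3 and CD28 stand in for antigen and an antigen-presenting cell. Arrays within a group are biological replicates by their titles, with no statement on whether each came from a separate animal or culture. If they did not, the p-values measure only the spread between these arrays, which may be technical.

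A resting T cell is small, circulates between blood and lymphoid organs, and keeps its growth and division programmes low. Engagement of the antigen receptor sends calcium, Ras and NF-kappaB signals to the nucleus, and CD28 adds a signal through PI3K. Within hours the cell makes cytokines, displays the high-affinity interleukin-2 receptor, enlarges its ribosome and mitochondrial pools, and leaves quiescence, while division itself follows later. Cereblon is the substrate receptor of a CUL4-DDB1 ubiquitin ligase and the protein that thalidomide and related drugs bind. Work on T cells has linked it to the potassium channel Kcna3.

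The targeted gene was examined in every array. Crbn read 8.97, 9.07 and 8.91 log2 in the 3 knockout naive arrays and 8.70, 8.77 and 8.58 in the 3 knockout activated arrays. Wild-type naive arrays read 10.06, 10.21 and 10.09, and wild-type activated arrays read 9.71 and 9.47. Each knockout array lay below each wild-type array, and signal remained in the knockout. Within the knockout Crbn fell by 0.30 log2 on activation (SE 0.085, limma adjusted p = 0.010). Without knockout activated replicate 3 the difference was -0.25 and its adjusted p was 0.051.

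The labelled cell type was read from markers of T cells and of other spleen cells. The median level of the 6 measured T cell markers (Cd3d, Cd3e, Cd3g, Cd2, Cd5 and Thy1) was between 12.11 and 12.16 log2 in knockout naive arrays and between 11.19 and 11.27 in knockout activated arrays. Markers of other spleen cells gave signal as well, and levels of different probe sets do not show how many cells of each type were present. The median of 12 B cell markers was 8.47, 7.76 and 7.92 in knockout naive and 7.56, 6.76 and 7.14 in activated arrays, and that of 15 macrophage and monocyte markers was 6.38, 6.01 and 6.26 against 5.60, 5.72 and 5.57. Among NK markers the median of 5 genes was 7.72, 7.13 and 6.92 in naive and 6.66, 6.59 and 6.36 in activated arrays. Knockout naive replicate 1 stood apart. Its 7 neutrophil markers had a median of 7.19 against 5.81 and 5.64 in the other naive arrays, and the neutrophil gene S100a8 read 8.49 there against 6.08 and 5.24. Results that rest on this array are given with and without it. Of 12 B cell markers 7 were lower after activation and 0 higher, of 15 macrophage markers 11 and 0, of 7 neutrophil markers 2 and 0, of 5 NK markers 4 and 1, of 6 erythroid markers 1 and 0, of 5 platelet markers 2 and 1, of 7 dendritic cell markers 2 and 2, and of 6 plasma cell markers 2 and 2. Of all genes 22.4% were lower and 20.7% higher. The shares lower among neutrophil (28.6%), erythroid (16.7%) and dendritic cell markers (28.6%) thus lay near that of all genes. Without knockout naive replicate 1 the lower counts became 5 for B cells, 10 for macrophages and 0 for erythroid cells, and the 1 platelet rise became 0. The antibody chain gene Jchain read 12.31, 12.14 and 12.39 in naive and 9.66, 9.58 and 9.36 in activated knockout arrays. The lowest lower quartile of an array was 4.57 log2, and of all these markers 1 macrophage and 1 platelet gene lay under it in every array. In bulk RNA, fewer cells of a type and less RNA per cell cannot be told apart.

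Sequences upstream of genes with strong changes are shown here so that the motifs counted further on can be seen in their letters, where they occur. They are RefSeq windows of the mouse assembly GRCm38.p6, 5′ to 3′ on the strand of the gene, and cover the 250 bases before the start. Il2 (chr3:37125955-37126204, minus strand) and Ccl3 (chr11:83649379-83649628, minus strand) are the 2 largest rises of the knockout response, and Dusp1 (chr17:26508473-26508722, minus strand) is its largest fall. Nop2 (chr6:125131633-125131882, plus strand) is the 1 of 26 ribosome biogenesis genes with a MYC E-box before its start. Aars (chr8:111033592-111033841, plus strand) and Tars (chr15:11399659-11399908, minus strand) are tRNA synthetase genes. Nop2, Aars and Tars were chosen after their values and motifs were seen, and they are not typical of their lists. Capitals mark the MYC E-box CACGTG, the cAMP response element TGACGTCA and the amino acid response element TGATGNAAN, each read on both strands.
Il2: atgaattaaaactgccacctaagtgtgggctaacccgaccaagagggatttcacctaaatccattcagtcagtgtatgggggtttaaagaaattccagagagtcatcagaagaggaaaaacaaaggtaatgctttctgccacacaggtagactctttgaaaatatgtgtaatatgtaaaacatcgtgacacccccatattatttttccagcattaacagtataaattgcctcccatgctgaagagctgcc
Ccl3: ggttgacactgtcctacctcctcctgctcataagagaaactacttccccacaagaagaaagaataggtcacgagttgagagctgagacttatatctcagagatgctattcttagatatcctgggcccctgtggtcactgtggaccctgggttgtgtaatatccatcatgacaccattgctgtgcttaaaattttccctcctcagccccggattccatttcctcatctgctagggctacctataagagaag
Dusp1: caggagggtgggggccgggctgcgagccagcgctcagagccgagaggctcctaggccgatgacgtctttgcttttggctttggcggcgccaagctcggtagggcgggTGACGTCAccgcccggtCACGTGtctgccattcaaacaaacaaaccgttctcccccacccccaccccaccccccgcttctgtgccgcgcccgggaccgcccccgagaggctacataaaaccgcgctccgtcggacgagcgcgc
Nop2: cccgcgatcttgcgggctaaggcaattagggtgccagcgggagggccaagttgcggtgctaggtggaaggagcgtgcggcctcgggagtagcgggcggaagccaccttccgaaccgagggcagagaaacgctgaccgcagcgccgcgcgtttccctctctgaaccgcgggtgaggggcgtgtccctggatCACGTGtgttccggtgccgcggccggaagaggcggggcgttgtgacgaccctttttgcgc
Aars: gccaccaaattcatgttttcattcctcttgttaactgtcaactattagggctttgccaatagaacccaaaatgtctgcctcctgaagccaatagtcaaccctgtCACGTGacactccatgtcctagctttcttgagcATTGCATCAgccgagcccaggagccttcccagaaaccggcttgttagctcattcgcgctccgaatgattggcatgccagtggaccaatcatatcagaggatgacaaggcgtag
Tars: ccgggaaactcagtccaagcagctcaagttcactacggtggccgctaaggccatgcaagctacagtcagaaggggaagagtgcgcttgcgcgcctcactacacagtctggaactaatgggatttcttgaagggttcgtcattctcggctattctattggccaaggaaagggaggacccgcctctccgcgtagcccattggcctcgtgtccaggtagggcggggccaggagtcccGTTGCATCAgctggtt
In Aars and Tars the amino acid response element appears as its reverse complement. Neither the Il2 nor the Ccl3 stretch held any of the motifs searched. The Dusp1 stretch held a cAMP response element and an E-box, and the matches shown in capitals do not overlap each other.

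The microRNA-155 host gene, Mir155hg, was among the largest rises. The mature products of this locus are shown with the seed, bases 2 to 8, in capitals. They lie on mouse chromosome 16 of GRCm38.p6, plus strand, the 5p form at chr16:84714143-84714165 and the 3p form at chr16:84714182-84714202.
mmu-miR-155-5p: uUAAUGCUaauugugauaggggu
mmu-miR-155-3p: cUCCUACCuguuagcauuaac
The 2 seeds differ, and the array measured the host transcript only, not either mature form.

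Between activated and naive knockout cells 7851 of 18194 genes differed (43.2% of those tested), at an adjusted p under 0.05 in limma. Of these, 3770 were higher (20.7%) and 4081 were lower (22.4%) after 12 hours. A rise of at least 2-fold was met by 1096 genes (6.02%) and a fall of that size by 1067 (5.86%). At 4-fold the counts were 175 up and 214 down, at 8-fold 34 up and 36 down, and at 16-fold 14 up and 6 down. The median difference of all genes was -0.03 log2. The median standard error of a difference was 0.088 log2, close to the median SD of 0.083 among naive and 0.082 among activated knockout arrays. Centring each array on its median moved the median of all genes to 0.05 and the split to 4654 higher and 3374 lower, 58.0% higher in place of 48.0%. The values of all 3 activated arrays lay above all 3 naive arrays in 4457 genes (24.5%) and below them in 5087 (28%). Of the genes that rose 2-fold, 22 had a naive mean under the lowest lower quartile, and 21 of those that fell 2-fold had an activated mean under it. Signal above background was not shown there, so such changes have an uncertain size.

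Secreted products, regulators of transcription and an amino acid enzyme made up most of the 15 largest rises. Ccl3, a chemokine that draws monocytes and T cells, read 6.84, 5.90 and 6.26 in naive and 12.20, 11.93 and 12.32 in activated knockout arrays. It rose by 5.81 log2, 56.3-fold (SE 0.24, limma adjusted p = 1.0e-09). Il2, the T cell growth factor, read 5.80, 5.68 and 5.49 in naive and 11.24, 10.70 and 11.46 in activated arrays. The lowest activated array lay far above the highest naive array. The rise of Il2 was 5.47 log2, 44.4-fold (SE 0.196, limma adjusted p = 3.8e-10). Gzmb, the granule protease granzyme B, went from 9.11, 7.71 and 7.81 to 13.14, 13.09 and 12.83, and its highest naive value came from replicate 1. Its rise was 4.81 log2, 28.0-fold (SE 0.29).

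Below these came Spin4, a chromatin reader (4.99, 31.8-fold), Mir155hg (4.70, 26.0-fold), the chemokine gene Xcl1 (4.54), Bcat1, which starts branched-chain amino acid breakdown in the cytosol (4.53), Ccl1 (4.34), Crabp2, a retinoic acid carrier (4.29), Irf4, a transcription factor of activated lymphocytes (4.24), Fosl1 (4.23), Ifng (4.22), Ccl4 (4.13), Hivep3 (4.03) and Lad1 (3.87). Bcat1 read 5.65, 5.61 and 5.32 in naive and 10.05, 9.96 and 10.17 in activated knockout arrays, and Irf4 read 7.75, 7.38 and 7.55 against 11.92, 11.70 and 11.77. In both genes the 3 activated arrays lay within 0.3 log2 of each other. Spin4 in all 3 naive arrays (3.72, 3.68 and 3.21), Mir155hg in 2 of them (4.61, 4.54 and 4.39) and Fosl1 in 2 of them (4.42, 4.30 and 4.62) lay under the lowest lower quartile, so the size of these rises is uncertain. For Hivep3, 2 of 4 probe sets other than the brightest passed the threshold in the opposite direction.

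A feedback phosphatase, receptors that guide migration and factors of the resting state led the falls. Dusp1, a phosphatase that switches off MAP kinases, read 12.92, 12.93 and 12.98 in naive and 8.08, 8.30 and 8.16 in activated knockout arrays. It fell by 4.76 log2, 27.1-fold lower (SE 0.09, limma adjusted p = 9.2e-12), and the arrays of each state lay close together. Rasgrp2, an exchange factor for the integrin-activating GTPase Rap1, read 10.77, 10.81 and 10.59 and then 5.84, 6.62 and 6.35, a difference of -4.46. The linker histone gene H1f2 read 10.61, 10.44 and 10.40 and then 6.16, 6.21 and 5.92, a difference of -4.39. The other falls of this size were A530021J07Rik (-4.10), the AP-1 gene Fos (-4.08), the Notch regulator Dtx1 (-4.01), the egress receptor S1pr1 (-3.99), Dzip1 (-3.89), the glucocorticoid-induced gene Tsc22d3 (-3.76), the chemokine receptor Cxcr4 (-3.70), the inhibitory adaptor Sit1 (-3.61), Klf2, a factor that maintains quiescence and homing (-3.59), Smpdl3a (-3.56), Fosb (-3.46) and Acp5 (-3.44). A530021J07Rik read 3.04 in each of the 3 activated arrays, which is under the lowest lower quartile.

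**Figure D1:**
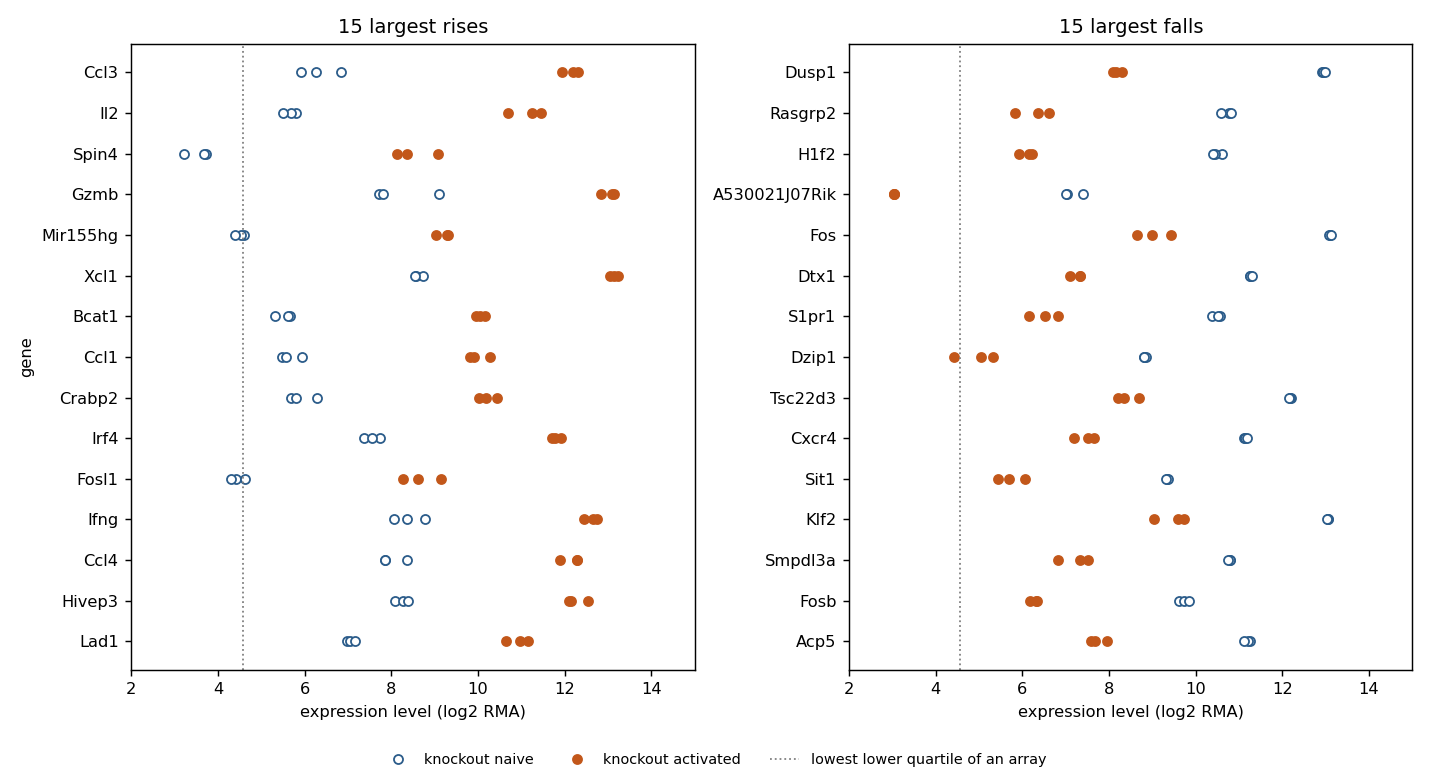
Log2 RMA expression levels of the 15 genes with the largest rises and the 15 with the largest falls in the 3 naive (open circles) and 3 activated (filled circles) knockout arrays, with a dotted line at the lowest lower quartile of an array (4.57). The arrays of the 2 states do not overlap in any of these genes, which the choice of genes required, and the naive values of Spin4 and the activated values of A530021J07Rik lie under the line.

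Immediate early transcription factors, which respond to signals without new protein synthesis, had split into opposite directions by 12 hours. Of 23 measured, 11 were higher and 10 lower, with a median difference of -0.04 log2 against -0.03 for all genes. The counts of this and of every later list stand beside shares of 20.7% higher and 22.4% lower among all genes. The risers were led by Fosl1, Nr4a3, an orphan nuclear receptor (3.15), Egr2 (2.87), Egr3 (1.80) and Nr4a2 (1.27). Nr4a3 read 8.32, 8.49 and 8.77 in naive and 11.57, 11.42 and 12.03 in activated knockout arrays. Fos, which pairs with Jun proteins in AP-1, went down. It read 13.11, 13.09 and 13.12 in naive arrays, the brightest levels of the list, and between 8.65 and 9.42 in activated arrays. Junb (-2.71), Jun (-1.89), Ier2 (-1.20) and Egr1 (-0.54) fell. Nr4a1, a common reporter of antigen receptor signalling, differed by -0.09 (SE 0.181, limma adjusted p = 0.76), from 11.31, 11.53 and 11.54 to 11.32, 10.94 and 11.86, and its arrays overlapped. Of 19 of these genes with a promoter window, 5 held the EGR site GCGNGGGCG (26.3%, against 8.9% of the 14453 genes with a window).

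Regulators of Ras and MAP kinases changed in both directions, 6 of 21 higher and 11 lower, and the median was -0.25. Spry1, an inhibitor of Ras signalling, read 8.18, 8.16 and 8.29 in naive and 11.02, 10.78 and 11.50 in activated knockout arrays, a rise of 2.89 (SE 0.139). Its relative Spred1 rose by 1.88 and the phosphatase gene Dusp16 by 1.45. Beside Dusp1 and Rasgrp2, the falls included the Ras GTPase-activating gene Rasa3 (-2.64), the main Ras activator of T cells Rasgrp1 (-1.23), Dusp2 (-0.92) and Dusp10 (-0.83). Dusp6, a phosphatase for ERK, differed by -0.23 with an adjusted p of 0.26, and by -0.46 (0.00172) without knockout activated replicate 3.

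Cytokine genes rose as a group in knockout cells, 17 of 24 higher and 2 lower, the median being 1.42 log2. Besides Il2, the largest rise was that of Ifng, the macrophage-activating cytokine, from 8.77, 8.37 and 8.05 to 12.76, 12.44 and 12.66 (4.22, SE 0.168). Lif rose by 3.24 and Csf2, a growth factor for myeloid cells, by 2.87 (SE 0.152). Il4, the type 2 cytokine, read 5.92, 6.29 and 6.07 in naive and 8.87, 8.64 and 9.64 in activated arrays, a rise of 2.96 (SE 0.193), so activated replicate 3 lay highest. Lta rose by 2.51, Tnfsf11 by 2.35, Tnfsf8 by 2.21, Il6 by 2.08, Il3 by 1.95 and Tnf by 1.77. Il16, a cytokine stored by resting lymphocytes, went from 11.12, 11.15 and 11.10 to 8.99, 9.45 and 8.94, a fall of 2.00. Ltb, the partner of Lta in lymphotoxin, stayed among the bright genes and still fell from 12.80, 12.87 and 12.90 to 11.77, 12.02 and 12.02. Il10, an inhibitory cytokine, differed by -0.31 with an adjusted p of 0.11, which became 0.0169 with the replicate block and 0.0184 without knockout naive replicate 2, and Tgfb1 differed by 0.06.

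Of 12 chemokine ligand genes 11 rose and 1 fell, and their median difference was 3.00 log2, the largest of the lists examined. Xcl1, which attracts cross-presenting dendritic cells, read 8.56, 8.73 and 8.54 in naive and 13.15, 13.05 and 13.23 in activated knockout arrays (SE 0.101). Ccl4 went from 8.36, 7.86 and 7.84 to 12.29, 11.90 and 12.28, and Ccl1 from 5.48, 5.58 and 5.93 to 9.91, 9.81 and 10.28. Ccl22 (3.27), Cxcl9 (3.09), Ccl9 (2.91), Cxcl10 (1.96) and Ccl17 (1.55) followed. Ccl22 and Ccl17 are also counted as dendritic cell markers here. The other dendritic markers Itgax (-1.06) and Flt3 (-0.51) fell, and Zbtb46 (0.05), Xcr1 (-0.14) and Siglech (-0.22) did not pass. The mean of its probe sets gave 0.54 for Zbtb46 and passed, and Siglech passed without knockout naive replicate 2. Ccl5, a chemokine of memory and NK cells, fell by 3.16 (SE 0.146), from 12.56, 12.10 and 12.01 to 9.10, 9.12 and 8.97. Of 5 NK markers 4 also fell, led by Klrd1 (-2.16) and Klra8 (-1.54), and the part of these cells in the fall of Ccl5 was not tested.

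Granule and death genes rose in 8 of 15 cases and fell in 3, at a median of 0.34. Serpinb9, an inhibitor that protects cells from granzyme B, rose by 3.14, from 7.77, 7.49 and 7.03 to 10.69, 10.44 and 10.57. Serpinb6b rose by 2.15, Gzmc by 1.88 and the death ligand gene Fasl by 0.73 (0.42 without knockout activated replicate 3). Perforin, Prf1, rose by 0.34, and the mean of its probe sets, 0.16, did not pass. Granzymes of resting memory and NK cells went the other way, Gzmm from 7.96, 7.83 and 7.40 to 6.31, 6.27 and 6.37 (-1.41) and Gzmk from 8.56, 7.04 and 7.19 to 6.26, 6.36 and 6.50 (-1.23, SE 0.332). Without knockout naive replicate 1 the difference of Gzmk was -0.74 (limma adjusted p = 0.0142). Gzma differed by -0.78 with an adjusted p of 0.27, and by 0.02 without that array.

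Cytokine receptors and their SOCS feedback genes were redistributed, 9 of 24 higher and 13 lower, and the median was -0.41. Il2ra, the subunit that gives the interleukin-2 receptor high affinity, read 7.21, 7.34 and 7.35 in naive and 10.78, 10.70 and 10.53 in activated knockout arrays, a rise of 3.37 (SE 0.101, limma adjusted p = 1.5e-10). The STAT5-induced inhibitors Cish (2.57), Socs1 (1.81) and Socs2 (1.17) rose, as did Il15ra (1.75) and Il12rb1 (1.51). Il7r, the receptor that keeps naive T cells alive, read 12.75, 12.64 and 12.55 and then 9.33, 9.92 and 9.68, a fall of 3.00. Il6ra fell by 2.88, and Il18r1 (-2.21), Tgfbr2 (-1.57) and Socs3 (-1.44) fell too. Il12rb2 differed by 0.30 with an adjusted p of 0.091, and it passed in 5 of 18 other settings.

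Genes of homing, egress and adhesion fell in 17 of 22 cases and rose in 3, with a median of -0.78. S1pr1, which lets T cells leave lymphoid organs, read 10.38, 10.56 and 10.52 in naive and 6.16, 6.81 and 6.53 in activated knockout arrays. Cxcr4 read 11.11, 11.14 and 11.19 and then 7.20, 7.64 and 7.51. The integrin genes Itgb7 (-3.07), Itgae (-2.64) and Itga4 (-2.63) fell together, and so did Selplg, the selectin ligand (-1.69), S1pr4 (-1.64) and Cxcr3 (-1.60). The 3 rises were Ccr4 (1.14), Ccr8 (1.11) and Cd44, the hyaluronan receptor that marks activated cells (1.05). Ccr7, the lymph node homing receptor, differed by 0.09 with an adjusted p of 0.53, and its arrays overlapped between states. Cd69, an early activation marker, was already bright in naive arrays at 11.71, 11.65 and 11.52 and lay lower in activated arrays at 11.19, 10.73 and 11.25 (-0.57, limma adjusted p = 0.0014).

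Factors that hold T cells in quiescence had the lowest median of the 42 lists of function, -1.64, with 19 of 23 genes lower and 2 higher. With the mean of the probe sets the median of this list was -1.15. Klf2 read 13.04, 13.05 and 13.02 in naive and 9.04, 9.74 and 9.58 in activated knockout arrays. Its relatives Klf4 (-3.33), Klf6 (-2.83), Klf3 (-1.80) and Klf13 (-1.64) fell as well. Tob1, a brake on T cell proliferation, fell by 2.37, and the CDK inhibitor gene Cdkn1b (-2.24), Btg2 (-2.16) and Foxo1, the factor that drives Klf2 and Il7r in resting cells (-1.84), fell as well. Bach2 (0.73) and Slfn2 (0.48) rose, and Satb1 (-0.14, past the threshold by the mean of its probe sets) and Foxp1 (0.03) did not pass. Genes known to be induced by glucocorticoids partly overlap this list. Of 13 measured, 8 were lower and 1 higher, at a median of -1.24 (-1.85 with only genes above the median level). Tsc22d3 read 12.21, 12.18 and 12.15 and then 8.20, 8.70 and 8.35, and Sgk1 fell by 2.99, while Fkbp5 (0.14) and Zbtb16 (-0.06) did not pass. By the mean of the probe sets both passed, Fkbp5 at 0.18 and Zbtb16 at -0.57.

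Costimulatory and inhibitory receptors rose in 13 of 24 cases and fell in 7, and the median was 0.58. Tnfrsf9, the costimulatory receptor 4-1BB, read 8.74, 9.06 and 9.14 in naive and 11.98, 11.84 and 12.16 in activated knockout arrays, a rise of 3.01 (SE 0.104). Among inhibitory receptors and ligands, Pdcd1lg2 rose by 2.69, Pdcd1, which encodes PD-1, by 2.25 (SE 0.221), Lag3 by 2.18, Cd200 by 2.08 and Cd274 by 1.59. Pdcd1 went from 6.55, 6.21 and 7.01 to 8.71, 8.48 and 9.34. Ctla4 went down, from 10.37, 10.00 and 10.50 to 8.47, 8.46 and 8.33 (-1.87), and Tox (-1.52) and Slamf6 (-1.17) fell. Ctla4 is also a regulatory T cell marker. In that list of 7 genes Itgae (-2.64) and Ikzf2 (-1.14) fell as well, Il2ra rose, and Foxp3 itself differed by -0.32 with an adjusted p of 0.078. Without knockout naive replicate 1 the difference of Foxp3 was -0.47 (limma adjusted p = 0.00903), and it passed in 4 of 19 other settings, the replicate block (0.0379) among them.

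Components of the antigen receptor and its proximal kinases fell in 18 of 25 cases and rose in 2, with a median of -0.64. The CD3 chain gene Cd3e read 11.85, 11.87 and 11.84 in naive and 11.14, 11.20 and 11.18 in activated knockout arrays, a difference of -0.68 (SE 0.064). Cd3d (-0.76), Cd247 (-0.87), Cd3g (-0.95), Cd8a (-0.74), Cd8b1 (-1.35) and Cd4 (-1.10) all fell. The kinase gene Txk fell by 2.01, and Plcg1 (-1.39) and Prkcq (-1.22) fell. Cblb, a ubiquitin ligase that restrains activation, rose by 0.97, and Zap70 rose by 0.37. For each of Cblb and Zap70, 1 of 2 further probe sets passed in the opposite direction. The mean of the probe sets gave 0.13 for Zap70 and -0.21 for Cd8a, and neither passed.

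Calcium and calcineurin genes mostly fell, 14 of 23 lower and 5 higher, at a median of -0.25. Within the pore-forming family of store-operated calcium entry the members diverged. Orai1 rose by 1.29, from 8.98, 9.10 and 9.29 to 10.34, 10.32 and 10.59, and Orai2 fell by 2.56, from 9.24, 9.29 and 9.27 to 6.46, 6.96 and 6.69. Orai3 differed by 0.13 with an adjusted p of 0.23. The endoplasmic pump genes showed the same kind of split, Atp2a2 at 1.14 and Atp2a3 at -2.09. The inositol trisphosphate receptor gene Itpr3 fell by 1.98, as did Itpr2 (-1.79), the calcium sensor gene Stim1 (-1.33) and Nfatc2 (-1.11). Kcna3, the potassium channel that cereblon has been linked to, rose by 0.43, and lost the threshold without knockout naive replicate 1 (0.39, adjusted p 0.0582), naive replicate 2 (0.0648) or activated replicate 3 (0.31, 0.0907). Among NF-kappaB genes 6 of 15 rose and 5 fell, and the median was 0.13. The rises included Nfkb2 (1.40), Rel (1.38), Relb (0.85) and Nfkbib, which encodes an inhibitor of NF-kappaB. The falls included the inhibitor gene Tnfaip3 (-2.20) and Nfkbiz (-1.59), so inhibitor genes went both ways. Tnfaip3 went from 12.57, 12.61 and 12.61 to 10.44, 10.37 and 10.39.

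Transcription factors of T cell lineages and interferon regulation fell in 16 of 29 cases and rose in 6, with a median of -0.32. After Irf4 the rises were those of Irf8 (2.86), Stat5a (2.08), the Th1 factor gene Tbx21 (1.54), Eomes (1.36) and Ikzf4 (0.65). Irf8 read 8.93, 8.48 and 8.76 in naive and 11.68, 11.51 and 11.57 in activated knockout arrays. The falls were led by Irf7 (-1.58), Maf (-1.44), Rora (-1.38), Id2 (-1.26) and Ikzf2. Ikzf1, a transcription factor that cereblon degrades when certain drugs are bound, fell by 0.83 (SE 0.076), from 12.18, 12.24 and 12.21 to 11.25, 11.39 and 11.49. Bcl6 (-0.16) did not pass, and without knockout activated replicate 3 it did (-0.36). Interferon-stimulated genes fell in 17 of 23 cases and rose in 4, at a median of -0.95. The antiviral sensor gene Ddx58 fell by 2.10, and so did Ifit2 (-1.57), Ifit1 (-1.55), Xaf1 (-1.51) and Mx1 (-1.46). The 4 rises, Gbp2 (2.15), Gbp3 (0.91), Irgm1 (0.87) and Igtp (0.85), all encode GTPases that interferon gamma is known to induce. Of 15 macrophage and monocyte markers 11 fell and 0 rose, led by Fcer1g (-1.48) and Tyrobp (-1.47), and the part of those cells in the interferon list was not tested. In the Notch pathway, Dtx1 read 11.25, 11.26 and 11.29 and then 7.33, 7.33 and 7.09, and Rbpj, the DNA-binding partner of Notch, rose by 1.78. In all 1 of 14 Notch genes rose and 6 fell (median -0.17), Notch1 among them (-0.23), whose adjusted p lay above 0.05 in 5 other settings.

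Myc, which drives ribosome and metabolic genes in activated lymphocytes, read 9.93, 9.86 and 9.84 in naive and 12.05, 11.97 and 12.26 in activated knockout arrays, a rise of 2.22 (SE 0.102). It was the only riser among 15 genes of the MYC network, where 5 fell and the median was -0.13. With each array centred on its median 3 genes of that list rose. Mxd4, a MYC antagonist, fell by 2.34, and Txnip, an inhibitor of glucose uptake, fell by 2.98. Max, the partner of MYC, differed by 0.17 with an adjusted p of 0.089, and passed in 2 other settings. Every one of the 32 measured ribosome biogenesis genes rose, and the median was 1.47, and 30 of them rose at least 2-fold. The median level of the list was 9.48, 9.38 and 9.40 in naive and 11.18, 11.06 and 11.22 in activated arrays. Nop16 (2.48), Nolc1 (2.25), Rrp12 (2.10), Ebna1bp2 (2.01) and Tbl3 (2.00) led, and Npm1, already among the brightest genes at 12.92, 12.95 and 12.90, rose least at 0.56. Nop2, whose upstream sequence is printed with its E-box, read 9.15, 9.09 and 9.16 and then 10.86, 10.82 and 10.90 (1.73).

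An E-box was present in the 300-base windows, from 250 bases before to 50 after the start, of 6 of 26 ribosome biogenesis genes (23.1%) and of 9.02% of the 14453 genes with a window. The 6 were Nop2, Utp4, Utp20, Pes1, Mybbp1a and Wdr43, and in Nop2 alone the match lay before the start. In the 250 bases before the start the share was 3.85% of ribosome biogenesis genes against 7.56% of all genes, so the order of the shares turned. Among genes that rose at least 4-fold 18 of 147 windows held an E-box (12.2%), and among those that fell by as much the share was 10.7%. Before the start these shares were 5.44% and 8.88%. The AP-1 site TGANTCA stood in 7.48% of the windows of 4-fold risers and in 6.33% of all windows. These shares describe the letters in the windows and were not tested.

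RNA polymerases I and III, which make ribosomal and transfer RNA, rose in 17 of 23 subunits and cofactors and fell in 2, with a median of 0.62. Polr1b rose by 1.89, from 8.16, 8.03 and 8.08 to 9.93, 9.95 and 10.06, Polr3g by 1.79 and Polr3k by 1.57. The 2 falls were Maf1, a repressor of polymerase III (-0.86), and Brf1 (-0.71). Aminoacyl-tRNA synthetases rose in 18 of 19 cases, at a median of 1.25, and the exception was Qars (0.06, limma adjusted p = 0.57). Iars rose by 1.71, Eprs by 1.50, Aars by 1.49, Kars by 1.48 and Tars by 1.36. Aars read 8.89, 8.77 and 8.75 and then 10.29, 10.30 and 10.28, and Tars read 9.01, 9.02 and 9.05 and then 10.40, 10.37 and 10.39. The amino acid response element TGATGNAAN, the site of ATF4, was in the windows of 5 of 12 synthetase genes (41.7%: Yars, Gars, Aars, Iars and Tars) and in 2.74% of all windows. Before the start it was in 3 of the 12 (25%) and in 2.41% of all. It was in 4 of 18 windows of the serine and one-carbon list (22.2%). Of 20 translation factors 14 rose and 2 fell, and the median was 0.80. Eif2b3 rose by 2.11, Eif1a by 2.07, the cap-binding factor gene Eif4e by 1.51 and its inhibitor gene Eif4ebp1 by 1.84, and Eef2 fell by 0.22. The fall of Eef2 did not pass with the mean of the probe sets (-0.13), with each array centred (-0.13) or without knockout activated replicate 3.

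Mitochondrial ribosomal proteins rose in 22 of 25 cases with 0 falls and a median of 1.10, led by Mrps22 (1.79) and Mrps18b (1.58). Respiratory chain and ATP synthase genes rose in 20 of 24 cases with 0 falls, and by less, with a median of 0.37. Atp5g1 read 10.26, 10.22 and 10.19 in naive and 11.47, 11.55 and 11.56 in activated knockout arrays (1.30). Ndufb6 and Ndufab1 each rose by 1.26, and cytochrome c, Cycs, by 1.09. Ndufa1 differed by 0.14 with an adjusted p of 0.071, and passed in 5 other settings.

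Glycolysis and glucose uptake genes rose in 14 of 23 cases and fell in 7, at a median of 0.53. Hk2, the inducible hexokinase, stood out, from 6.71, 6.76 and 7.33 to 10.30, 10.05 and 10.28 (3.27, SE 0.187). Pgam1 (1.62), the lactate carrier gene Slc16a1 (1.60), Tpi1 (1.48) and Ldha (0.67) rose. Of the glucose transporters Slc2a1 rose by 0.31 and Slc2a3 fell by 1.27, from 10.70, 10.67 and 10.59 to 9.47, 9.35 and 9.33. Pdk1, which restrains the oxidation of pyruvate in mitochondria, fell by 1.54.

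Amino acid transport and breakdown genes rose in 11 of 21 cases and fell in 5, and the median was 0.31. After Bcat1 came Slc7a5, the large neutral amino acid transporter (2.02, from 8.82, 8.63 and 8.84 to 10.86, 10.71 and 10.79), the aspartate aminotransferase gene Got1 (1.69) and the arginine carrier gene Slc7a1 (1.55). The later steps of branched-chain breakdown fell, Bckdha (-0.85) and Bckdhb (-0.66). Serine and one-carbon enzymes and other ATF4 targets rose in 13 of 18 cases and fell in 3, with a median of 0.68. Shmt1, which moves one-carbon units from serine to folate in the cytosol, read 6.94, 7.07 and 6.90 and then 10.45, 10.32 and 10.57 (3.48, SE 0.108). Psat1 rose by 2.00, Shmt2 by 1.95, Mthfd1 by 1.66, Mthfd2 by 1.38 and Phgdh by 1.12. Asns, asparagine synthetase, rose by 2.51 with an SE of 0.472, and its naive arrays lay far apart at 7.42, 6.28 and 5.71 while the activated arrays read 9.09, 8.90 and 8.94. Atf4 itself fell by 0.25, and it did not pass in 6 of 19 other settings, naive replicate 1 left out among them. Ddit4, an inhibitor of mTORC1, fell by 1.85.

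Nucleotide synthesis genes rose in 16 of 22 cases and fell in 3, at a median of 0.97. The purine enzyme gene Pfas rose by 2.28, the pyrimidine enzyme gene Cad by 1.95, Dctpp1 by 1.92, Ctps by 1.89 and Ppat by 1.70. Pfas read 8.13, 8.11 and 7.88 in naive and 10.37, 10.24 and 10.36 in activated arrays. The salvage kinase gene Dck fell by 1.37. Tk1 fell by 0.67 (limma adjusted p = 0.039), but it did not pass in 9 of 19 other settings, and without knockout naive replicate 1 the difference was -0.43 (0.168). Rrm2 differed by -0.50 with an adjusted p of 0.21, -0.21 without that array, and its adjusted p was 0.0463 with the replicate block and 0.0499 without knockout naive replicate 3. In polyamine metabolism 4 of 10 genes rose and 3 fell, at a median of -0.03. Srm, spermidine synthase, rose by 2.59, Azin1 by 1.39, Mtap by 1.17 and Odc1 by 0.91. The catabolic genes Sat1 (-1.13) and Smox (-0.51) fell.

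Of 24 genes of cholesterol and fatty acid synthesis 16 rose and 4 fell, and the median was 0.86. Idi1, isopentenyl diphosphate isomerase, read 7.92, 8.13 and 7.87 in naive and 11.32, 11.45 and 11.28 in activated knockout arrays (3.38, SE 0.105, limma adjusted p = 1.5e-10). Cyp51 rose by 2.80, Sqle by 2.26, Acaca by 1.96, Hmgcs1 by 1.68 and Fasn by 1.60. The 4 falls of the list included the cholesterol efflux pumps Abca1 (-2.71, or -1.13 by the mean of its probe sets) and Abcg1 (-2.55), Abcg1 from 10.05, 10.16 and 10.05 to 7.43, 7.83 and 7.33. The others, Dhcr7 (-0.36) and Srebf1 (-0.22), had adjusted p-values above 0.05 in 3 and 7 other settings.

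Of 24 proteasome genes 20 rose and 3 fell, with a median of 1.01, and the 3 that fell, Psmb8 (-0.38), Psmb9 (-0.48) and Psmb10 (-0.94), are the catalytic subunits of the immunoproteasome. The mean of the probe sets gave -0.15 for Psmb8, which did not pass (0.219). Their constitutive counterparts Psmb5 (1.10), Psmb6 (0.99) and Psmb7 (1.39) rose. Psmd1 rose most, from 10.09, 10.02 and 10.04 to 11.62, 11.71 and 11.73 (1.64). Among heat shock and chaperonin genes 16 of 20 rose and 1 fell, at a median of 0.87. The mitochondrial chaperone gene Hspd1 rose by 1.96, Hspa9 by 1.58 and the 8 measured genes of the CCT ring, Tcp1 included, by 0.71 (Cct2) to 1.22 (Cct8). The stress-inducible Hspa1a (0.12) and Hspa1b (-0.04) did not pass. The unfolded protein response list rose in 16 of 24 cases and fell in 6, and the median was 0.45. Sdf2l1 rose by 1.70 and Pdia6 by 1.11. Dnajb9, a luminal cochaperone, fell by 2.15, from 11.40, 11.46 and 11.43 to 9.32, 9.18 and 9.34, and the sensor kinase gene Eif2ak3 fell by 1.15.

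**Figure D2:**
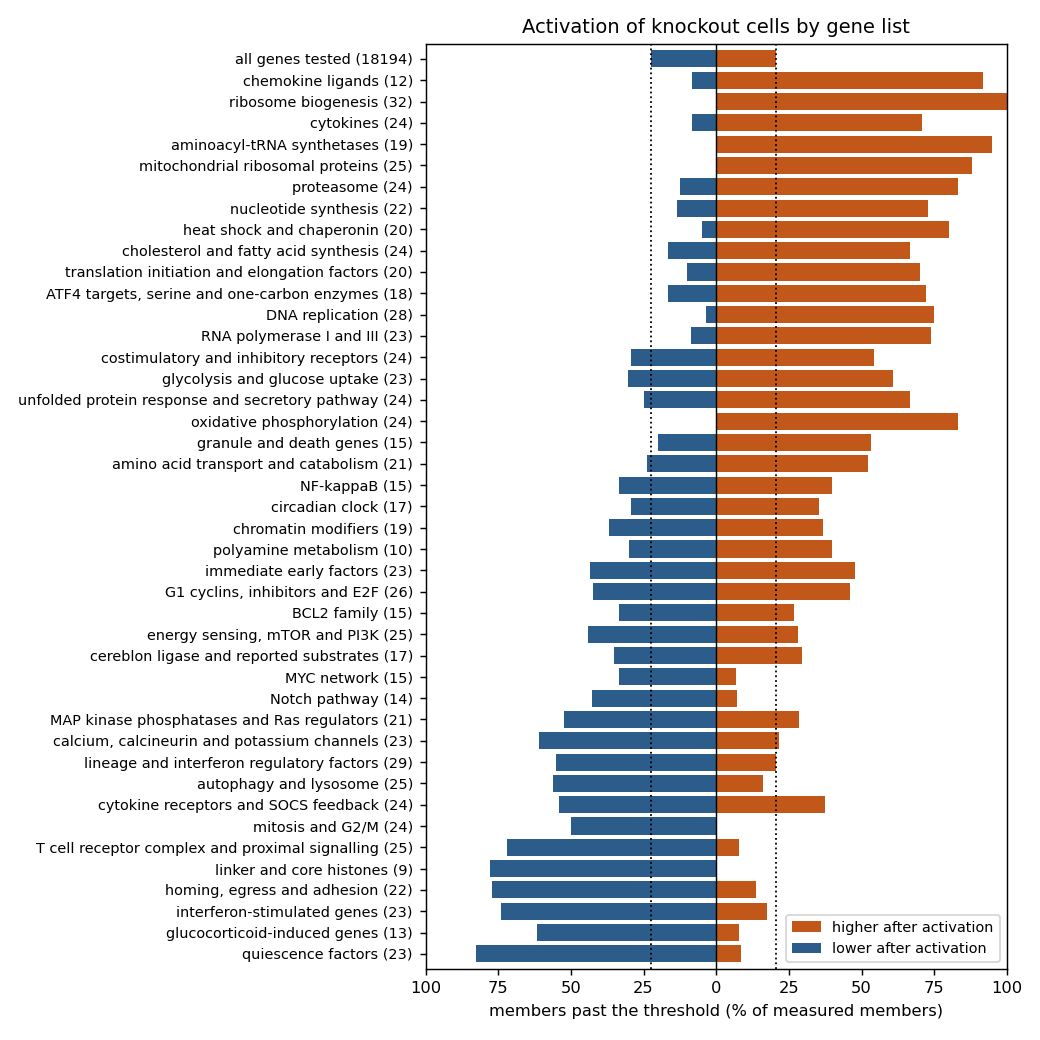
Share of the measured members of each of 42 lists of function (number in brackets) that passed an adjusted p under 0.05 in limma in activated against naive knockout cells, higher to the right and lower to the left, with dotted lines at the shares of all 18194 genes (20.7% higher, 22.4% lower). Ribosome biogenesis lies at 100% higher, and among these lists quiescence factors reach the largest share lower, 19 of 23.

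Of 28 DNA replication genes 21 rose and 1 fell, with a median of 0.66. Gins1, a subunit of the replicative helicase, read 6.97, 6.62 and 6.44 in naive and 8.46, 8.59 and 8.30 in activated knockout arrays (1.77, SE 0.213), and the helicase genes Mcm3 (1.37), Mcm5 (1.26), Mcm2 (1.24) and Mcm6 (1.09) rose. Rpa1 fell by 0.83, and Cdc6 differed by 0.35 with an adjusted p of 0.46. Of 24 genes of mitosis and G2 phase 0 rose and 12 fell, at a median of -0.55. Kif23, a motor of cytokinesis, fell by 2.11 (SE 0.108), from 8.89, 8.75 and 8.63 to 6.62, 6.74 and 6.58. The proliferation marker Mki67 read 9.97, 9.28 and 9.15 and then 8.02, 7.94 and 7.43 (-1.67, SE 0.238), and Nusap1 (-1.55), Ccnb2 (-1.53) and Birc5 (-1.29) fell. The median level of the mitotic list was 7.79, 7.07 and 6.89 in naive and 6.68, 6.67 and 6.36 in activated knockout arrays, so naive replicate 1 was highest. Without that array 9 of the 24 genes fell and the median difference was -0.35. The erythroid markers, from another dividing lineage of mouse spleen, had medians of 7.68, 6.79 and 6.71 in the same naive arrays and 6.91, 6.52 and 5.92 in activated ones, and their part in the mitotic list was not tested.

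Regulators of the G1 phase changed in 23 of 26 cases, 12 up and 11 down, and the median was -0.05. The G1 kinase gene Cdk6 rose by 1.78, from 9.39, 9.18 and 9.16 to 11.06, 11.14 and 10.88, and Cdk4 by 1.42, together with Cdc25a (1.02) and Ccnd2 (0.79). The CDK inhibitor gene Cdkn2d fell by 2.61, from 10.45, 10.64 and 10.46 to 8.01, 7.93 and 7.78. Cdkn1b (-2.24), the pocket protein gene Rbl2 (-1.88) and Rb1 (-0.91) fell as well. The inhibitor gene Cdkn1a rose by 1.25. Ccnd3, the main D cyclin of resting lymphocytes, fell by 1.11. Ccne2 rose by 1.23, with naive arrays at 6.03, 5.20 and 4.73, and its adjusted p of 0.013 rose above 0.05 in 3 other settings.

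**Figure D3:**
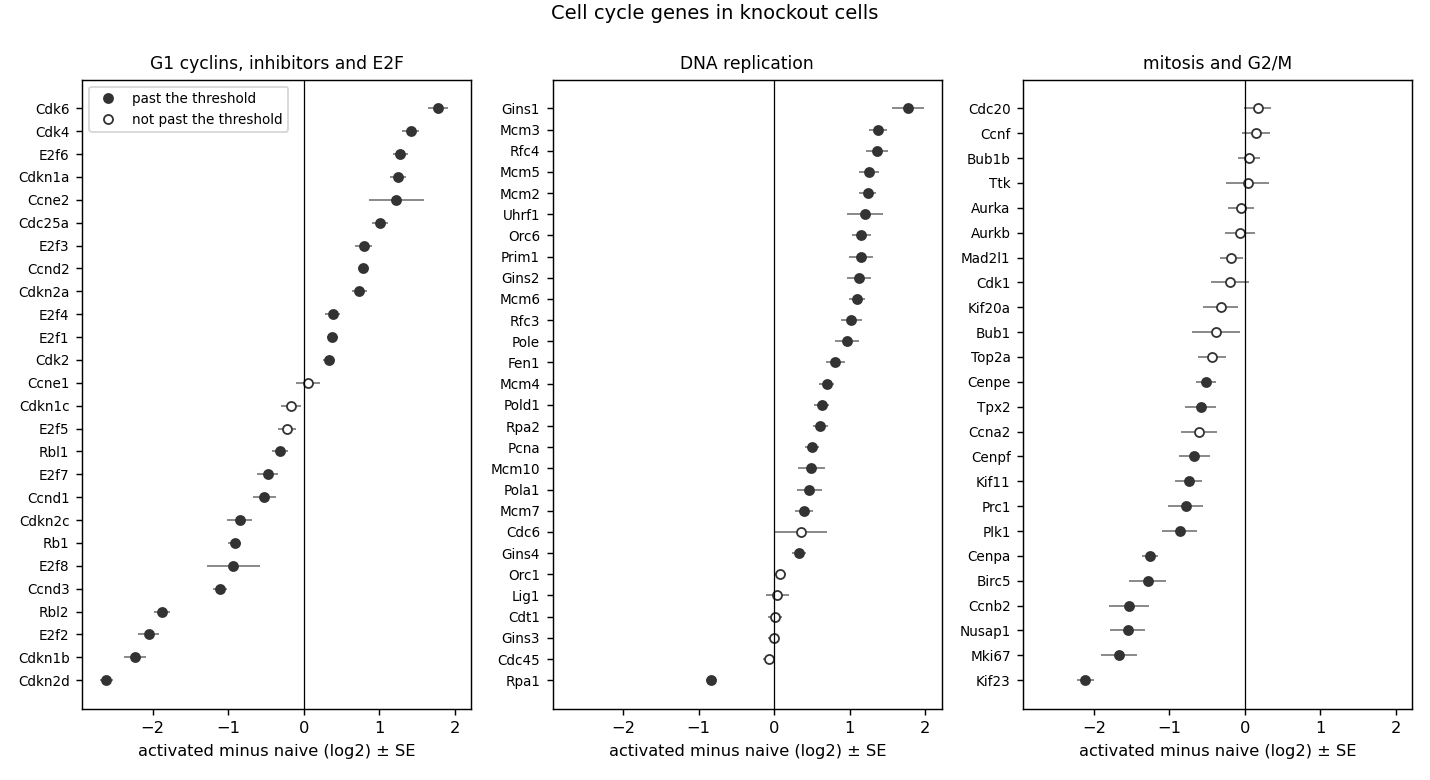
Activated minus naive log2 difference with its standard error in knockout cells for genes of the G1 phase (26), DNA replication (28) and mitosis and G2 phase (24), filled where the adjusted p in limma was under 0.05 and open where it was not. Replication genes lie mostly right of 0, with Gins1 highest, and none of the mitotic genes lies right of 0 with a filled point.

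Survival genes of the BCL2 family changed in 9 of 15 cases, 4 up (26.7%) and 5 down (33.3%), at a median of -0.07. Among all genes 20.7% were higher and 22.4% lower. Bcl2l1, which encodes the survival factor BCL-XL, read 8.78, 8.83 and 8.74 in naive and 10.85, 10.93 and 10.84 in activated knockout arrays (2.09, SE 0.102). The death genes Bcl2l11 (1.02) and Bid (0.85) rose, and Pmaip1 (-1.15), Bbc3 (-0.87) and Bad (-0.59) fell. Mcl1 fell by 0.48. Among circadian genes 6 of 17 rose (35.3%) and 5 fell (29.4%), with a median of 0.03. Npas2, a partner of BMAL1, rose by 3.09 from naive values of 4.57, 4.79 and 4.58, close to the lowest lower quartile, to 7.54, 7.72 and 7.93. Per2 (1.31) and Nfil3 (1.21) rose, and Per1 (-1.24), Dbp (-0.81) and Arntl (-0.61) fell. Clock rose by 0.27 by its brightest probe set, while the mean of its probe sets gave -0.09.

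Energy sensing, mTOR and PI3K genes were higher in 7 of 25 cases (28.0%) and lower in 11 (44.0%), at a median of -0.12. Among the 11 was Pdk1, the mitochondrial kinase gene also counted under glycolysis, which is not a PI3K pathway gene. The PI3K inhibitor gene Pik3ip1 fell by 2.82, from 10.30, 10.18 and 10.18 to 7.03, 7.81 and 7.36. The regulatory subunit gene Pik3r1 (-1.60) and Sesn1 (-1.54) fell. The rises stayed under 2-fold, with Akt2 (0.69), Rptor (0.55) and Rheb (0.50) first. AMP-activated kinase subunits Prkag1 (-0.93), Prkab1 (-0.61) and Prkaa1 (-0.50) fell. Autophagy and lysosome genes fell in 14 of 25 cases and rose in 4, and the median was -0.41. The cathepsin gene Ctsd fell by 1.45, Ctss fell by 1.26 and Ctsb fell by 1.07, while Gabarapl1 rose by 1.25.

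Among chromatin genes 7 of 19 rose and 7 fell, with a median of -0.02. The polycomb genes Bmi1 (1.17), Ezh2 (1.09), Eed (0.65) and Suz12 (0.51) rose, and Cbx7 (-1.25) and Ezh1 (-0.78) fell. The DNA methyltransferase genes Dnmt3a (0.96) and Dnmt3b (0.94) rose, Dnmt1 differed by -0.02, and of the enzymes that oxidise methylcytosine Tet1 fell by 1.23 and Tet2 rose by 0.49. Of 9 measured histone genes 0 rose and 7 fell (median -0.67), among them H2bc21 (-2.20), H3f3a (-1.15) and H3f3b (-1.11) beside H1f2. Of 17 genes for cereblon, its ligase partners and reported targets 5 rose (29.4%) and 6 fell (35.3%), at a median of -0.12. The shares of all genes were 20.7% and 22.4%. Gspt1, a translation termination factor that some cereblon ligands degrade, rose by 1.41, from 10.41, 10.30 and 10.28 to 11.74, 11.71 and 11.76. The ligase genes Cul4b (0.77), Ddb1 (0.70) and the deneddylase gene Cops5 (1.18) rose, Dda1 (-0.41, not past the threshold by the mean of its probe sets) and the reported substrate gene Glul (-0.58) fell, and Cul4a (0.13) and Rbx1 (0.10) did not pass.

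A few strongly changed genes varied widely between replicate arrays. Among genes that changed at least 2-fold the largest SDs among activated knockout arrays were those of Zfp945, Car1, Pkib, an immunoglobulin kappa variable gene, Mreg and Tafa3. Mreg went from 5.37, 5.43 and 5.84 to 9.89, 8.93 and 8.71, a rise of 3.63 (SE 0.243). Pkib read 7.81, 6.57 and 6.74 after activation, with replicate 1 highest, and Zfp945 read 5.37, 6.55 and 6.78, with replicate 1 lowest. Among naive arrays the largest SDs were those of Car1, Lyz1, S1pr5, Mt1, Ptgr1 and Asns. In each of these 6 genes replicate 1 was highest: Car1, an erythrocyte carbonic anhydrase, read 9.83, 8.47 and 7.27, and Lyz1, a myeloid lysozyme, read 9.89, 7.55 and 8.06. The fall of Car1 (-1.62) had an adjusted p of 0.030, which became 0.129 without naive replicate 1. Without that array the difference was also over 1.5 times smaller for Lyz1 (-1.16 in place of -1.86), Mt1 (-0.64, adjusted p 0.178, in place of -1.18), Ptgr1 (-1.05 in place of -1.59) and S1pr5 (-0.95 in place of -1.51).

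The response of knockout cells was set against that of wild-type cells with the same test and a direct test of the difference between the 2 responses. In wild-type cells 7475 genes passed (41.1%), 3672 higher (20.2%) and 3803 lower (20.9%), with 673 up (3.70%) and 1021 down (5.61%) by at least 2-fold. In knockout cells these counts were 1096 and 1067. The wild-type counts rest on 2 activated arrays, whose median difference of 0.148 log2 was the largest of any pair within a group. The median level of ribosome biogenesis genes was 10.99 in wild-type activated replicate 1 and 11.27 in replicate 2. It was 11.18, 11.06 and 11.22 in the knockout activated arrays. The part of this spread in the lower wild-type count of 2-fold rises was not tested. The difference between the responses passed an adjusted p of 0.05 in limma for 0 of 18194 genes, while 2515 had an unadjusted p under 0.05. With the replicate block 11 genes passed: Hspa1a, Hspa1b, Afp, Slc15a2, Ccdc70, Gatm, Prkar2b and 4 genes known from red cell precursors, Hemgn, Rhag, Slc4a1 and Tal1. Wild-type naive replicate 3 has no activated array of its number, so the block in effect leaves it out of the wild-type difference. Without wild-type naive replicate 3 the test passed for 4 genes (Hspa1a, Hspa1b, Afp and Apol8), and without wild-type activated replicate 2 for 1 (Cxcl3). The smallest adjusted p was 0.122, shared by Adam24, Hspa1a, Cxcl3, Afp, Bambi-ps1 and Slc35g1. With 2 wild-type activated arrays the test of a difference is less precise than that of either response, and a p that misses the threshold does not show that the genotypes respond alike.

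The values of Il2 and of genes with a smaller adjusted p of the difference are given side by side. None of them passed with all arrays and no block. Il2 rose by 5.47 in knockout and 4.65 in wild-type cells, where it went from 6.21, 5.91 and 6.12 to 10.37 and 11.09. The difference of 0.82 had an SE of 0.295 and an adjusted p of 0.29. Hspa1a differed by 0.12 on activation in knockout cells and by -1.20 in wild-type cells, a difference of 1.32 (limma adjusted p = 0.122). Under the replicate block the difference of Hspa1a was 1.46 (limma adjusted p = 0.0076). Its naive arrays read 4.86, 4.95 and 4.91 in the knockout and 5.77, 6.05 and 5.48 in the wild type. Cxcl3 differed by 1.90 in knockout and 0.66 in wild-type cells, from knockout naive values of 3.03, 3.12 and 3.14 that lie under the lowest lower quartile. Npas2 rose by 3.09 in knockout and 2.03 in wild-type cells (adjusted p of the difference 0.172), Afp by 1.19 and 0.29 (0.122), and Slc35g1 by 0.93 and 0.32 (0.122). S1pr1 fell by 3.99 in knockout and by 3.04 in wild-type cells (0.191), and Bambi-ps1 differed by -3.27 and -2.55 (0.122).

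Opposite calls in the 2 genotypes were rare and small. Slfn10-ps rose by 0.32 in knockout and fell by 0.39 in wild-type cells. The reverse, lower in knockout and higher in wild-type cells, was seen in 14 genes, among them Scn10a (-0.26 and 0.46), Adam24 (-0.36 and 0.36) and Cdrt4 (-0.25 and 0.45). Levels of Scn10a lay under the lowest lower quartile in all knockout arrays. None of these differences passed the test in the fit of all arrays. In knockout cells Slfn10-ps lost the threshold in 2 other settings, naive replicate 1 left out among them, Cdrt4 in 4 and Scn10a in 5.

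Counts of the gene lists were set side by side in both genotypes. Ribosome biogenesis rose in 32 of 32 genes in each genotype, with medians of 1.47 in knockout and 1.26 in wild-type cells. Chemokine ligands rose in 11 of 12 knockout and 10 of 12 wild-type comparisons, and quiescence factors fell in 19 of 23 in each. DNA replication genes rose in 21 of 28 knockout and 14 of 28 wild-type comparisons, with medians of 0.66 and 0.33. The median level of the replication list was 8.87, 8.70 and 8.48 in knockout naive and 9.46, 9.13 and 8.89 in wild-type naive arrays, against 9.59, 9.63 and 9.42 in knockout and 9.24 and 9.47 in wild-type activated arrays. The naive arrays of the wild type thus lay higher, replicate 1 most, and the activated arrays overlapped. Mitotic genes fell in 12 of 24 in the knockout and 20 of 24 in the wild type, with medians of -0.55 and -1.03. The median level of the mitotic list was 8.53, 7.84 and 7.59 in wild-type naive arrays and 6.63 and 6.93 in wild-type activated arrays, so 2 of 3 wild-type naive arrays lay above all knockout naive arrays while the activated arrays overlapped. Erythroid markers fell in 1 of 6 in the knockout and 4 of 6 in the wild type. They had medians of 9.06, 8.07 and 7.51 in wild-type naive arrays against 7.68, 6.79 and 6.71 in the knockout, and their part in these counts was not tested. No gene of the replication or mitotic list passed the test of the difference.

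**Figure D4:**
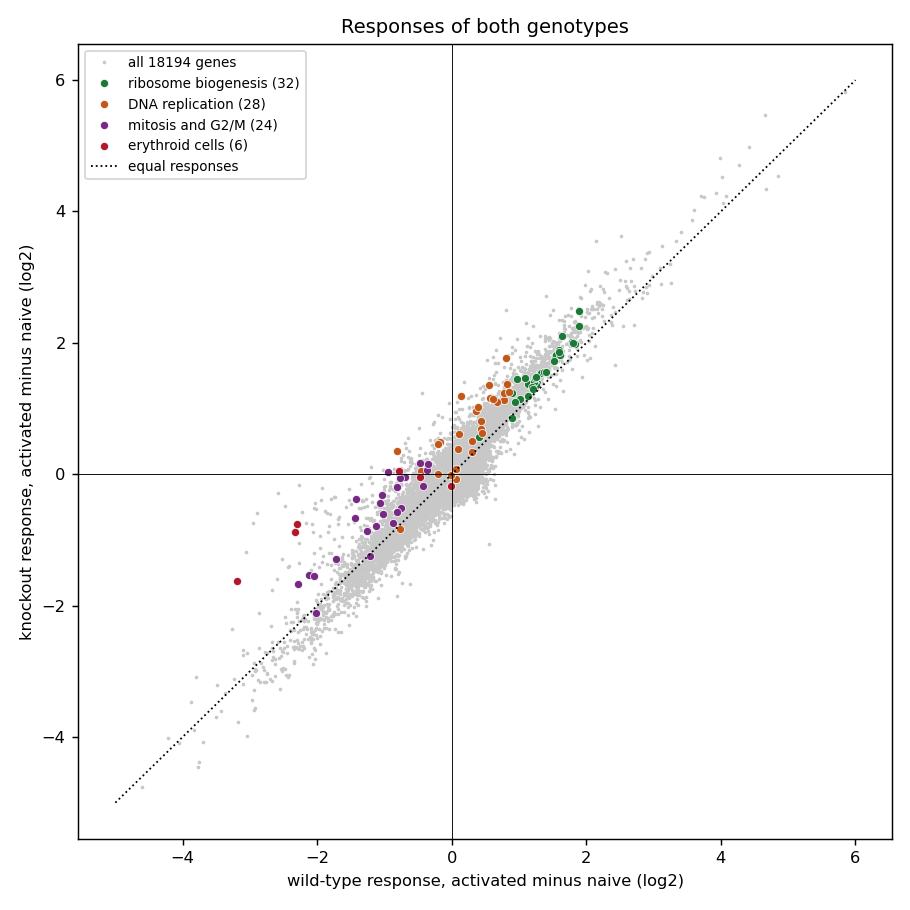
Activation response (activated minus naive, log2) of all 18194 genes in wild-type cells on the x axis and in knockout cells on the y axis, with a dotted line of equal responses and the genes of 4 lists in colour. Ribosome biogenesis genes lie high on both axes, and mitotic and erythroid genes lie mostly above the line at negative values, their falls being larger in wild-type cells.

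Results for a gene rest on its brightest probe set. The 7851 genes that passed had 9163 further probe sets, of which 82.5% had the same direction and 328 passed in the opposite one. Among the genes named here these include Clock, Cblb, Zap70, Hivep3, Rora and Pfkl (1.21). With the mean of the probe sets 74 of the 353 genes named here that passed had a difference over 1.5 times smaller or larger, 73 of them smaller. Among the leading genes the mean gave 2.39 for Bcat1, 2.65 for Fosl1, 0.99 for Hivep3, -2.16 for Dtx1, -1.72 for Dzip1, -2.13 for Tsc22d3, 1.25 for Nr4a3 and 1.59 for Npas2. Beside these and the genes for which that mean is given above, the rises of Acaca, Afp, Akt2, Atp2a2, Atp5g1, Azin1, Bcl2l1, Cblb, Cct8, Cul4b, Cxcl9, Dusp16, Ebna1bp2, Eed, Egr3, Eif4ebp1, Hspa9, Lif, Nfkb2, Nr4a2, Per2, Pfkl, Pkib, Polr3k, Rptor, Slc16a1, Socs2, Spred1, Tbl3 and Tet2 were that much smaller. So were the falls of Arntl, Atp2a3, Cbx7, Dusp10, Eif2ak3, Ezh1, Foxo1, Glul, Ikzf1, Il16, Itga4, Itpr2, Jun, Kif23, Klf3, Mt1, Mxd4, Nfatc2, Nusap1, Plcg1, Rasgrp1, Rb1, Rora, Slc2a3, Tgfbr2, Tob1 and Zfp945. Bcl2l11 alone was larger, at 1.53.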

How the data were processed

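RNA from splenic T cells was labelled with biotin and measured on Affymetrix mouse arrays of a single colour, 1 per sample. Per the submitters' processing notes, GCOS, RMA and Partek were used, with no version named. The deposited values, log2 RMA signals of 45101 probe sets in 11 arrays by the authors, were used as they stood. They ran from 2.32 to 15.0, with column medians from 5.84 to 5.89. Probe set names came from the platform annotation: 34958 carried 1 symbol, 932 several and 9211 none. The brightest probe set stood for each of 18194 genes, of which 9012 had several. A fitted difference is a log2 difference, and folds are 2 to that power.

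Group means of the 4 groups were fitted with limma 3.58.1 in R 4.3.3 (prior degrees of freedom 5.46, residual 7), two-sided, with Benjamini-Hochberg adjustment over 18194 genes and a threshold of 0.05. Contrasts were activated minus naive in each genotype and their difference. The 54 gene lists, 42 of function and 12 of cell markers, held 989 genes, of which 924 were measured. Lists, members and tests were chosen with earlier results of these data known. They are described by counts and medians. Named were Crbn, the 15 largest rises and falls with arrays that do not overlap, up to 5 rises and 5 falls and 1 gene not passing per list, the 6 genes of largest SD per state, up to 4 genes of opposite call each way, and other list members beside these. The genes with the smallest p for the difference of responses, none of which passed with all arrays, and those that passed under an alternative were named after their values were seen.

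Replicate numbers are shared by naive and activated groups, but no label says that they mark an animal. Deviations of same-numbered knockout arrays correlated at 0.270, 0.0871 and 0.216, and those of other-numbered ones at -0.253 to 0.0431. These values do not settle whether the numbers mark pairs. The numbers were not taken as pairs in the reported fit, and the replicate block was run as an alternative. Promoter windows and miRNA sequences are RefSeq GRCm38.p6, with a window for 14453 genes, the first listed for each. The fit was also run on simulated data with known changes added to the knockout activated arrays. The outcome is not given here and no result rests on it. The number of arrays limits the precision. Other settings were 8 alternatives of processing and the omission of each array in turn. Python 3.11.15 with pandas 2.3.3 served for counts, and matplotlib 3.10.9 for figures.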

Additional observations from a re-analysis of the deposited data

How the results depend on the processing

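Counts of higher, lower and 2-fold genes in knockout activation stayed within 1.5 times the reported count in all 19 other settings. Higher genes ranged from 3369 (only genes above the median level) to 4654 (each array centred on its median) and lower genes from 3362 to 4470. The count of genes whose response differed between genotypes was 0 except with the replicate block, which gave 11, and with 1 array left out, where it ranged from 0 to 4 (4 without wild-type naive replicate 3, 1 without wild-type activated replicate 2). Genes at an unadjusted p under 0.05 for that difference numbered 1247 with only genes above the median level. In the other settings that kept both wild-type activated arrays they ranged from 1649 (without wild-type naive replicate 1) to 3272 (without wild-type naive replicate 3). The cause was not tested. With a wild-type activated array left out, the lone one left is assumed to vary like the other groups. The replicate block also gave 3615 higher and 3948 lower genes in knockout activation. In deviations from the group mean, not in whole arrays, each knockout array correlated best with the array of the other state that shared its number. That is a hint from the data and not from the design. In the wild type same-numbered deviations correlated at -0.299 and -0.178. The deviations of 2 activated arrays are exact opposites, so each wild-type naive array correlates with them at equal size and opposite sign. Of 519 genes covered by the naming rule or named in the text, 443 kept their call in every setting in which they were tested and 76 did not. A kept call means the same side of the threshold and, for genes that had passed, the same direction. Genes that had not passed could change sign and keep their call, as Gzma did (-0.78, and 0.02 without knockout naive replicate 1). Of the 519 genes, 452 were tested in all 19 settings. The mean of the probe sets turned Clock to -0.0907 and E2f5 to 0.4855. Genes of the text that passed and then lost the threshold in some setting numbered 21, with Mt1 (10 settings), Tk1 (9), Srebf1 (7), Atf4 and Car1 (6 each) first, and 18 that had not passed did so in some setting. Of 42 lists of function, 7 had a count of higher or lower members that left 1.5 times the reported one in some setting. Their medians moved by more than the spread between activated arrays in 125 of 798 values over 38 lists, by at most 0.85 (chemokine ligands, from 3.00 to 2.15 with the mean of the probe sets). In 8 lists, each with a median within 0.12 of 0, the sign of the median changed in some setting. No array carries a depth, and genes under the lowest lower quartile have no measured lower end.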
